A study of Mus musculus with 7 samples.

Results

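A set of 6 complement genes that glial cells can make was followed through the nuclei of the mouse hippocampus. They are C4b, C4a, C3, C2, C1ra and Serping1, out of the 55536 genes in the count tables, matched by symbol, and all 6 were found. Transcript counts of single nuclei were summed per well of the first barcoding round and per cell type. Each of the 24 wells held nuclei from the hippocampus of 1 mouse. The 4 groups had 6 wells each, named by sex and number, 3 female (F1, F2, F3) and 3 male (M1, M2, M3). Arctic48 mice (Arc) carry, hemizygously and on a C57BL6/J background, a human APP transgene with the Indiana, Swedish and Arctic mutations, and develop amyloid plaques. WT mice came from the same crosses with C57BL6/J mice and lacked the transgene. From each genotype, one group drank water (WT-veh, Arc-veh) and the other drank PMX205, an antagonist of the complement receptor C5aR1, at 20 μg/ml (WT-PMX, Arc-PMX). The labels give 12 weeks of treatment, while the study's text gives a span of ages for these mice that is somewhat shorter. All mice were perfused at 10 months of age. All Arc mice came from 1 transgenic line, so the values describe this line at this age.

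Complement is a cascade of plasma proteins that marks material for removal. In the classical pathway C1q binds a target, its protease C1r activates C1s, C1s cuts C4 and C2, the C4b and C2 fragments form the enzyme that cuts C3, and C3 fragments tag the surface. C1 inhibitor, the product of Serping1, blocks C1r and C1s. In brain, C1q is known as a product of microglia, and C4 and C3 as products of astrocytes and other glia, with C3 used as a marker of reactive astrocytes.

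After filtering, 43885 nuclei remained, with 1146 to 3108 nuclei and 4383653 to 29936082 transcripts per well. Clusters, made without any complement gene, were named from marker genes. Named clusters held 5443 astrocytes, 4158 oligodendrocytes, 1331 oligodendrocyte progenitor cells (OPCs), 23115 neurons, 1506 microglia, 430 endothelial cells and 313 pericytes, the last 2 also summed as vascular cells. Neurons were deeper (median 8165 transcripts per nucleus) than OPCs (2306), astrocytes (1769) and oligodendrocytes (1126). A further 9 clusters stayed unnamed (6152 nuclei, 14.0%). In clusters 20, 27, 37 and 40 a second cell type reached at least 0.8 of the best marker score. Clusters 14, 24 and 25 scored far higher for neurons than for any other type. Their leading genes, however, included a marker from another list and none for neurons. Clusters 4 and 35 also scored highest for neurons. They were shallow beside the named neurons (medians of 673 and 1321 transcripts) and had no neuron marker among their leading genes. Oligodendrocytes were few in WT-veh F3 (15 nuclei) and M3 (28 nuclei). The reporting summary of the study mentions a WT sample that was dropped for an Arctic expression pattern, but not which well held it, and no well was dropped here. Levels are given as CPM, the count of a gene scaled to the summed transcripts of the type in a well, and because CPM are not scaled to gene length, they are compared between groups and types but not between genes.

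C4b and C4a are near-identical neighbours on the minus strand of chromosome 17 (GRCm38). C4b (ENSMUSG00000073418.4, chr17:34728380-34743882) encodes the mouse C4 of the classical pathway. C4a (ENSMUSG00000015451.16, chr17:34809092-34823464), annotated as a processed transcript, lies 65209 bases away. Aligned over 5366 bases, the transcripts C4b-201 and C4a-207 were 96.2% identical, with 204 differing bases, and 35.2% of the stretches of 50 bases in either transcript were also in the other. Of 953 windows of 120 bases within 1 exon and within the coding part of C4b, 138 (14.5%) were identical and the median window differed at 4 bases. Sequences are from GENCODE vM21 transcripts. A median window and the most different one are shown as examples of how alike the transcripts are over the coding part of C4b. Introns and untranslated ends are outside these windows, and where the reads fell was not examined. Capitals mark the differing bases, 4 in exon 12 (chr17:34739953-34740072 in C4b, chr17:34819476-34819595 in C4a) and 19 in exon 21 (chr17:34735430-34735549 in C4b, chr17:34816086-34816205 in C4a), all on the minus strand.
C4b, exon 12: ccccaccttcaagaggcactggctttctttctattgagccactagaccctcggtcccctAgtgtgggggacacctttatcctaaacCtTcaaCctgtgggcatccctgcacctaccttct
C4a, exon 12: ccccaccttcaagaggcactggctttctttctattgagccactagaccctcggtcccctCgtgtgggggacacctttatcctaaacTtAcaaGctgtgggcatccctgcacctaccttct
C4b, exon 21: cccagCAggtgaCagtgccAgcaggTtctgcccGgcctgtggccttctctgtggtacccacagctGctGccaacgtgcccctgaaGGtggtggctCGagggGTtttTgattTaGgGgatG
C4a, exon 21: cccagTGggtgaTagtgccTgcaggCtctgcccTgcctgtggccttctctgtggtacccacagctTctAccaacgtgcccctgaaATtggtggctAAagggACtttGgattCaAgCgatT
Counts of both genes are therefore uncertain where reads fell in shared stretches, and how such reads were assigned is not given in the sources used here. In OPCs, C4a had 0 counts in all groups while the Arc wells held 543 counts of C4b, and in astrocytes C4a had 23 counts beside 6810 of C4b.

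C4b, the substrate of the C1 proteases, was higher in Arc than in WT in astrocytes, oligodendrocytes and OPCs, and on the log2 scale the rise was larger in the oligodendrocyte lineage than in astrocytes. In CPM the difference between the group means was smaller in OPCs than in astrocytes. In astrocytes the WT-veh wells lay between 128 and 209.8 CPM of C4b (median 169) and the Arc-veh wells between 519.9 and 1847 CPM (median 738). In WT-PMX it lay between 130.5 and 468 CPM (median 166) and in Arc-PMX between 385 and 1023 CPM (median 836). The Arc-veh wells all lay above the WT-veh wells, and among all wells only WT-PMX M1 (468 CPM) and Arc-PMX M2 (385 CPM) crossed. WT-veh had a mean of 166 ± 28.7 CPM (SD, n = 6 wells) and Arc-veh one of 928 ± 516 CPM (n = 6). By edgeR the rise was 2.40 log2 units with a standard error of 0.28 (adjusted p = 3.3e-08). Of the 7305 genes tested in astrocytes, 7.62% were higher in Arc-veh by this call. Most WT astrocytes lay in clusters 5 and 10 and cluster 15 held 984 Arc and 27 WT nuclei, so the 2 genotypes are compared over different clusters.

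In oligodendrocytes, the myelin-forming cells, the WT-veh wells lay between 0 and 143 CPM (median 58.8) and the Arc-veh wells between 716 and 2434 CPM (median 1035). With PMX205 the ranges were 53.6 to 130.3 CPM in WT (median 74.2) and 713.5 to 1370.0 CPM in Arc (median 1266). The lowest Arc well (713.5 CPM) lay above the highest WT well (143 CPM), so the genotypes did not overlap. The means were 61.9 ± 53.9 CPM (SD, n = 6) and 1208 ± 637 CPM (n = 6). The fitted rise by edgeR was 16.8-fold, 4.07 on the log2 scale with a standard error of 0.29 (adjusted p = 1.4e-13). Here 2.1% of the 4665 genes tested were called higher. The 0 and the 48.4 CPM of the WT-veh wells F3 and M3 rest on 15 and 28 nuclei, and with each well left out in turn the log2 fold change stayed between 3.78 and 4.31.

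OPCs, the dividing precursors of oligodendrocytes, had the lowest C4b of these types in WT. The WT-veh wells lay between 0 and 15.9 CPM (median 8.83) and the Arc-veh wells between 132 and 531 CPM (median 292). The WT-PMX wells reached from 7.10 to 35.9 CPM (median 14.2) and the Arc-PMX wells from 106 to 429 CPM (median 280.5). No Arc well overlapped a WT well. From a WT-veh mean of 7.61 ± 6.51 CPM (SD, n = 6), C4b reached 304 ± 165 CPM (n = 6) in Arc-veh, and the rise fitted by edgeR was 4.82 log2 units (standard error 0.45, adjusted p = 9.3e-11). Of 3104 genes tested in OPCs, 0.934% were called higher. C4b entered the test in OPCs through the Arc wells alone, which carried it past the filter on low counts.

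**Figure D1:**
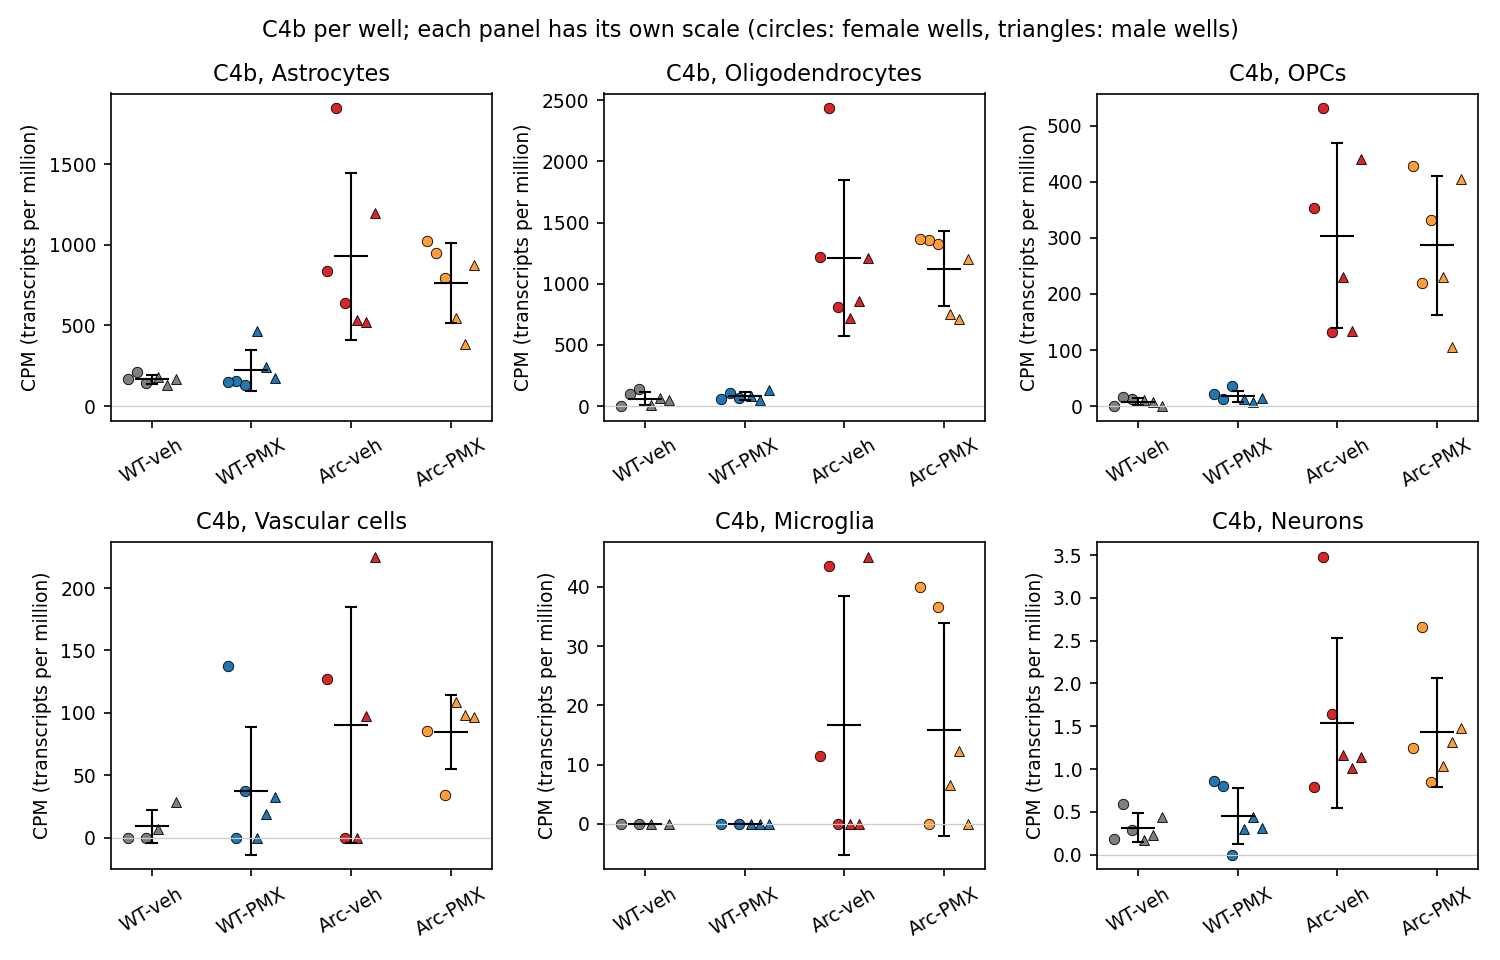
C4b in CPM (linear axes, each panel with its own scale) by group, in astrocytes, oligodendrocytes, OPCs, vascular cells, microglia and neurons, with 1 point per well (circles female, triangles male) and bars at the group mean ± SD. In oligodendrocytes and OPCs every Arc well lies above every WT well, and in astrocytes only WT-PMX M1 (468 CPM) and Arc-PMX M2 (385 CPM) cross.

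Markers of each glial type were measured in the same nuclei. In astrocytes their own 10 markers summed to 33053 to 37765 CPM in the WT-veh wells and 24842 to 30392 CPM in the Arc-veh wells, without overlap, and the part of this shift in the rises of C4b, C3 and Serping1 was not tested. In OPCs the summed level of the 10 astrocyte markers was 5630 to 7206 CPM in the WT-veh wells and 4448 to 6485 CPM in the Arc-veh wells, and that of the 10 oligodendrocyte markers 165 to 909 and 121 to 522 CPM. Both ranges overlapped, and neither list had a higher range in Arc. In Arc-veh, OPCs held C4b at 25% of its oligodendrocyte level, whereas the oligodendrocyte markers stood at 0.119 to 9.94% (median 0.725%) of theirs, all 10 below C4b. Against astrocytes, C4b stood at 32.9% and the astrocyte markers at a median of 3.82% (0.52 to 59.9%), 9 of 10 below C4b. In WT-veh, OPC C4b was 13.6% of its oligodendrocyte level, with all 10 oligodendrocyte markers below, but 5.91% of its astrocyte level, where the astrocyte markers had a median of 3.66% (0 to 40.2%) and 7 of 10 lay below C4b. The low WT-veh level in OPCs, against which the rise is taken, was thus closer to the astrocyte markers than the Arc-veh level was, and the part of RNA from other cells in it was not tested. In oligodendrocytes the astrocyte markers summed to 242 to 770 CPM in WT-veh wells and 264 to 374 CPM in Arc-veh wells. Among nuclei without any transcript of Gfap, the astrocyte filament gene, C4b was found in 122 of 305 Arc-veh OPCs (40.0%) against 8 of 385 in WT-veh (2.08%). The same count in oligodendrocytes was 721 of 1192 (60.5%) against 51 of 887 (5.75%). Gfap was found in only 5 Arc-veh and 0 WT-veh OPCs and in 8 and 1 oligodendrocytes, so these shares nearly repeat those of all nuclei. It was also absent from 374 Arc-veh astrocytes, so the part of astrocyte RNA was not tested by this split. The nuclei were not thinned, and the OPCs without Gfap were deeper in Arc-veh (median 2765 transcripts) than in WT-veh (1765). With nuclei left out that held any defining gene of another glial type, the log2 fold change was 4.74 in OPCs, 4.01 in oligodendrocytes and 2.38 in astrocytes. This kept 1219 of 1331 OPCs. Leaving out nuclei with 2 or more markers of other types kept 52 OPCs, in too few wells for a fit.

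Astrocytes, oligodendrocytes, OPCs, vascular cells, neurons and microglia were ordered by their mean C4b in WT-veh and in Arc-veh. Fibroblasts and ependymal cells, with means of 34.1 and 14.5 CPM in WT-veh, were not part of this order. In WT-veh, C4b was highest in astrocytes, followed by oligodendrocytes, vascular cells and OPCs, and astrocytes exceeded oligodendrocytes in 5 of 6 wells by 1.82 ± 1.66 on the log2 scale with a prior count of 2 (SD, exact sign-flip test, p = 0.0625, adjusted p = 0.104 over 10 pairs). In Arc-veh, oligodendrocytes came first and exceeded astrocytes in 6 of 6 wells, by 0.41 ± 0.23 log2 units (exact sign-flip test, p = 0.0312, the smallest that 6 wells allow, adjusted p = 0.0781). Astrocytes in turn exceeded OPCs in 6 of 6 Arc-veh wells by 1.58 ± 0.40 log2 units (same exact test and p). These neighbours therefore do not differ past the threshold after adjustment, which this number of wells does not allow. The change from WT-veh to Arc-veh itself was smaller in astrocytes than in oligodendrocytes by 2.23 log2 units (exact permutation test over wells, adjusted p = 0.00649) and smaller than in OPCs by 1.48 (exact permutation test, adjusted p = 0.00433). OPCs and oligodendrocytes differed in their change by 0.76 log2 units with oligodendrocytes larger, without passing the test (exact permutation, adjusted p = 0.303). With a prior count of 0.5 that gap was 0.12. The edgeR fits had the other order, 4.82 in OPCs and 4.07 in oligodendrocytes, so which type changed more was not settled.

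More nuclei held a C4b transcript in Arc, also at equal depth. With each nucleus thinned to 500 transcripts, 5.29 to 9.52% of astrocytes per WT-veh well (median 8.19%) and 20.8 to 53.5% per Arc-veh well (median 22.9%) held C4b. In oligodendrocytes the shares were 0 to 4.69% (median 3.17%) and 28.7 to 64.4% (median 36.3%). In OPCs they were 0 to 1.75% (median 0) and 3.08 to 24.5% (median 14.0%). In each type all Arc-veh wells lay above all WT-veh wells, and the mean share rose by 23.8 percentage points in astrocytes, 37.7 in oligodendrocytes and 13.4 in OPCs (exact permutation tests, n = 6 against 6 wells, each p = 0.00217, the smallest possible, adjusted p = 0.00217). Without thinning the mean shares were 18.0 and 71.8% in astrocytes, 4.53 and 63.1% in oligodendrocytes and 1.81 and 45.9% in OPCs. Among thinned nuclei that held C4b, its mean count went from 1.06 in WT-veh to 1.37 in Arc-veh in astrocytes and from 1.18 to 1.51 in oligodendrocytes, a mean that cannot fall below 1 count. In OPCs 2 of 385 WT-veh nuclei held it after thinning, too few for such a mean. For comparison, the highest thinned share of any Arc-veh well was 0.247% in neurons and 3.09% in microglia.

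**Figure D2:**
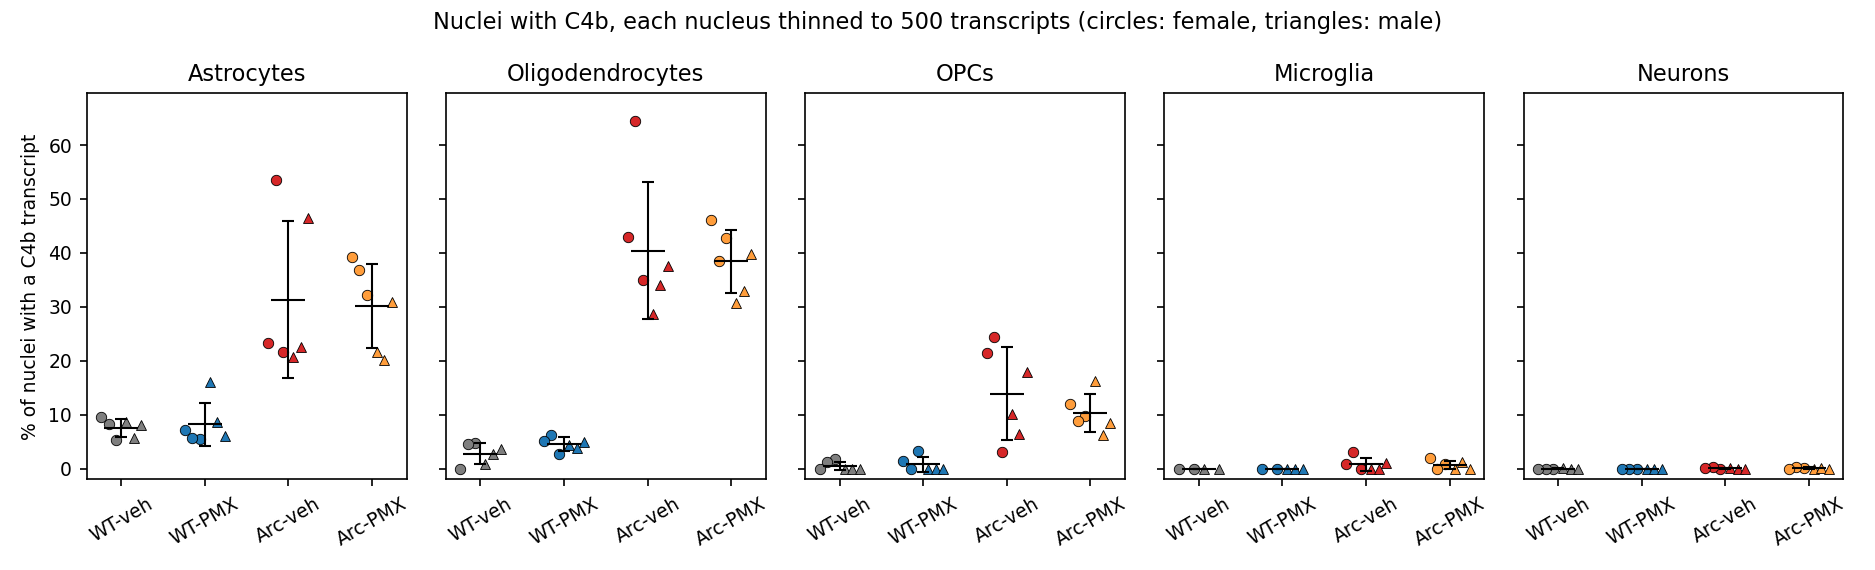
Percent of nuclei with at least 1 C4b transcript after thinning each nucleus to 500 transcripts, 1 point per well, by cell type and group (circles female, triangles male), with bars at the mean ± SD. The Arc-veh wells of oligodendrocytes reach 28.7 to 64.4% and the WT-veh wells at most 4.69%.

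Neurons held little C4b, and vascular cells a level that varied widely between wells. For neurons the WT-veh wells lay between 0.171 and 0.593 CPM and the Arc-veh wells between 0.786 and 3.48 CPM. Arc-veh was higher by 2.15 log2 units (standard error 0.44, edgeR adjusted p = 0.0495), in a comparison that called 0.0743% of 14801 genes higher, and the call was lost in 20 of 24 fits with a single well left out, lowest without Arc-veh F2 (1.75, adjusted p = 0.337). Neuronal C4b passed the filter on low counts through the Arc wells alone. The neuronal level was 0.129% of that in Arc-veh oligodendrocytes, where the 10 oligodendrocyte markers had a median of 0.108%, with 5 of 10 below C4b. It was also 0.17% of the level in Arc-veh astrocytes, where the astrocyte markers had a median of 0.631%, with 2 of 10 below C4b. Gfap itself rose in neurons by 2.24 log2 units (edgeR adjusted p = 0.0014), and the part of RNA from other cells in the neuronal value was not tested. In vascular cells C4b had 3 counts in 4 WT-veh wells (8.90 ± 13.5 CPM, SD) and 28 counts in 5 Arc-veh wells (90.0 ± 94.7 CPM, 2 wells at 0), a difference that did not pass (exact permutation test, p = 0.167, adjusted p = 0.754 over 21 pairs of a gene and a type too low for edgeR). In WT-PMX the vascular level was 37.7 ± 51.3 CPM (6 wells, 2 at 0) and in Arc-PMX 84.6 ± 29.6 CPM (5 wells, none at 0, 33.8 to 109 CPM). Microglia held 0 counts in 4 WT-veh wells, which allows up to 28.3 CPM, and 16 counts in 6 Arc-veh wells (16.7 ± 21.8 CPM, exact permutation p = 0.3, adjusted p = 0.754).

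C4a was measured mostly in neurons and was too sparse in glia to compare with C4b. Neurons held 78.0% of its 419 counts in WT and 73.4% of 335 in Arc, beside 78.0% and 74.1% of all transcripts of the nuclei, so neurons held about the share that depth alone gives. Its neuronal level was 1.74 to 3.34 CPM in WT-veh (median 2.21) and 1.26 to 2.85 CPM in Arc-veh (median 1.62). The wells of the genotypes overlapped and the log2 fold change was −0.42 (interval of 2 standard errors −0.94 to 0.11, edgeR adjusted p = 0.707). In oligodendrocytes the WT-veh wells held 1 count of C4a and the Arc-veh wells 3 (exact permutation test, adjusted p = 0.754), and in astrocytes 3 and 5 (adjusted p = 0.992). Over all wells of a genotype, oligodendrocytes had 2 counts in WT and 7 in Arc, and astrocytes 8 and 15. These counts are not scaled to depth, and Arc held more transcripts of both types (astrocytes 6962658 against 5163169, oligodendrocytes 3392984 against 2441440). In astrocytes the mean level of C4a was lower in Arc-veh (1.30 CPM) than in WT-veh (2.18 CPM). The glial counts were too few to show a difference.

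C2 (ENSMUSG00000024371.14, chr17:34862604-34898265, minus strand), the protease that joins C4b to cut C3, and C1ra (ENSMUSG00000055172.10, chr6:124512405-124523443, plus strand), which encodes the protease C1r, were sparse in glia. In astrocytes C2 had 1 count in WT-veh and 4 in Arc-veh (exact permutation p = 0.152, adjusted p = 0.754). C1ra had 1 and 8 counts there, 0.236 ± 0.579 and 2.34 ± 1.54 CPM (SD, n = 6 wells each, exact permutation p = 0.0152, adjusted p = 0.318). Neither difference passed after adjustment, and 16 of the 18 astrocyte counts of C1ra lay in cluster 15. In neurons C2 was 0.684 to 1.74 CPM in WT-veh wells and 0.597 to 1.46 CPM in Arc-veh wells (log2 fold change −0.07, interval −0.75 to 0.61, edgeR adjusted p = 0.977). Neuronal C1ra had 31 and 26 counts (exact permutation p = 0.729, adjusted p = 0.992). Both genotypes overlapped in neurons for both genes. In the small fibroblast cluster, cells of the brain's coverings, C2 reached 6 counts among WT-veh wells and 16 among Arc-veh wells (3 wells of each group), and this difference was not tested. Of the 16 counts, 10 lay in Arc-veh M3, and with PMX205 the counts were 4 in WT and 6 in Arc.

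C3 (ENSMUSG00000024164.15, chr17:57203970-57228136, minus strand) is the protein on which the pathways meet. Its upstream sequence is shown because C3 was called higher in Arc astrocytes, and the capitals mark a match to the C/EBP motif TTGCNNAA, 45 to 38 bases before the start on the strand of the gene (GRCm38.p6, chr17:57228137-57228386, minus strand, RefSeq promoter table).
C3, 250 bases upstream: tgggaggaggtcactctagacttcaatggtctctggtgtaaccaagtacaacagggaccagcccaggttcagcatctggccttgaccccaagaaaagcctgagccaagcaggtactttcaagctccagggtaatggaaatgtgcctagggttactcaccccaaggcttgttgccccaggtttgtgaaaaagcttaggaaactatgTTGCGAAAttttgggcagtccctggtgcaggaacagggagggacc
On both strands, 9.6% of 32851 promoter windows of this length hold such a match, so it is a description only. The letters TTCNNNGAA (a STAT motif, in 7.0% of windows) and TATAAA (in 12.4%) were not found, and no overlap with another motif searched was found.

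In astrocytes C3 lay between 0 and 7.29 CPM in WT-veh (median 0.893) and between 13.9 and 73.9 CPM in Arc-veh (median 31.2). In WT-PMX it lay between 0 and 6.48 CPM, all 7 counts in the well M2, and in Arc-PMX between 14.9 and 75.9 CPM (median 36.4). Every Arc well exceeded every WT well. Arc-veh (117 counts) exceeded WT-veh (7 counts) by 3.40 log2 units (standard error 0.55, edgeR adjusted p = 1.7e-05). C3 entered this test through the Arc wells alone, which carried it past the filter on low counts. Only 0.358 to 3.45% of thinned Arc-veh astrocytes per well held a C3 transcript (median 0.986%). C3 had 0 counts among 5834424 transcripts of oligodendrocytes and 3545306 of OPCs over all groups, which allows up to 0.514 and 0.846 CPM. In Arc-veh alone the limits were 1.73 and 3.2 CPM, and the rise of C4b in these cells had no measured counterpart in C3. Vascular cells had 0 counts among 1496644 transcripts, which allows up to 2.0 CPM. In ependymal cells, the ciliated lining of the ventricles, C3 had 29 counts in WT, 51.8% of the 56 WT counts over all nuclei, and 28 of 334 in Arc. Of these, 17 lay in WT-PMX M2 and 27 in Arc-PMX F1.

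Serping1 (ENSMUSG00000023224.12, chr2:84765387-84775444, minus strand), the inhibitor of C1r and C1s, had a like pattern in astrocytes. It was 0 to 4.25 CPM in WT-veh (median 1.25) and 18.4 to 49.8 CPM in Arc-veh (median 27.7). In WT-PMX it was 0 to 4.28 CPM (median 2.56) and in Arc-PMX 20.1 to 42.4 CPM (median 31.3). No Arc well overlapped a WT well. Arc-veh was 12.4-fold higher, or 3.64 on the log2 scale with a standard error of 0.48 (edgeR adjusted p = 3.8e-07). Serping1 too passed the filter on low counts through the Arc wells alone. Without WT-veh F2 the log2 value was 4.39, and without WT-veh M1 3.19. In neurons, which held 71.2% of the 170 WT counts and 78.0% of all WT transcripts, the mean was 0.787 CPM in WT-veh wells and 0.810 CPM in Arc-veh wells (log2 fold change −0.06, interval −0.71 to 0.58, edgeR adjusted p = 0.978). Oligodendrocytes had 0 counts in the WT-veh wells and 1 in the Arc-veh wells, and OPCs 0 in all groups, which allows up to 0.846 CPM (3.2 CPM in Arc-veh alone). Fibroblasts held 50.02 CPM in WT and 41.3 CPM in Arc, pooled over wells.

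**Figure D3:**
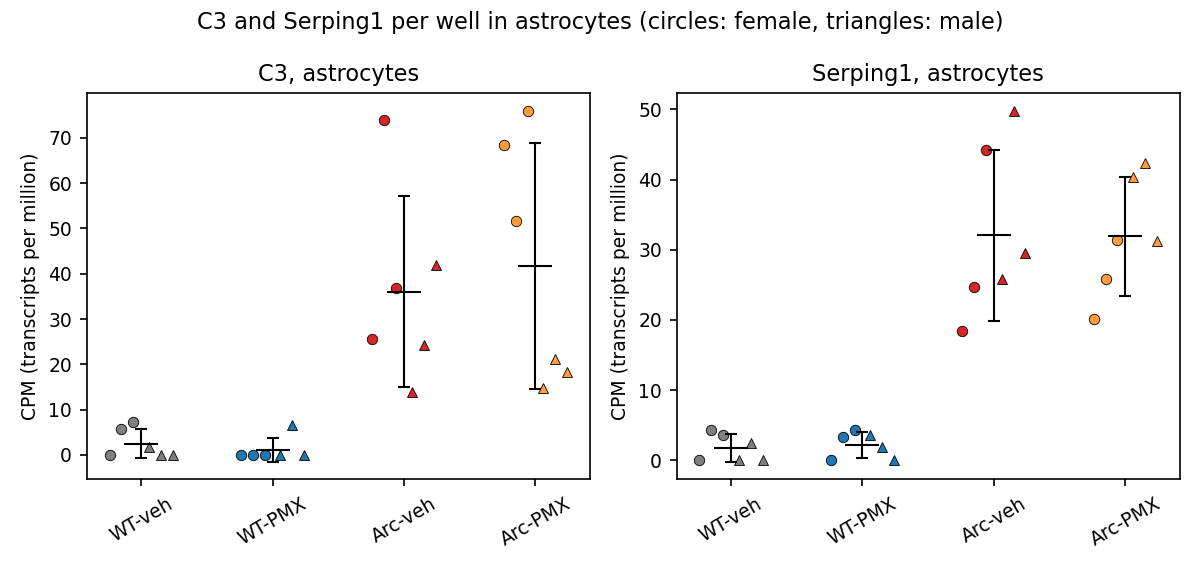
C3 and Serping1 in astrocytes in CPM, 1 point per well, by group (circles female, triangles male), with bars at the mean ± SD. The Arc wells sit between 13.9 and 75.9 CPM for C3 and between 18.4 and 49.8 CPM for Serping1, above the WT wells, which reach 7.29 and 4.28 CPM.

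The astrocyte clusters, which were made without these genes, differed in what they held. The values are sums over wells, with counting intervals only, and carry no test. C4b was present in all 4 clusters and its Arc value was above its WT value in each, in cluster 15 within the counting interval of the WT value. It went from 134 to 346.5 CPM in cluster 5, from 213 to 669.6 in cluster 10, from 421 to 701 in cluster 19 and from 810.5 (27 WT nuclei, 95% Poisson interval 576 to 1108) to 1012 in cluster 15. C3, in contrast, had 0 counts in the 2078 nuclei of cluster 5 and the 1431 of cluster 10. Of 293 astrocyte counts of C3, 240 (81.9%) lay in cluster 15 and 53 (18.1%) in cluster 19. Within cluster 15, C3 was at 83.1 CPM in the 27 WT nuclei (4 counts, 95% Poisson interval 22.7 to 213) and 66.3 CPM in Arc, a value inside that interval, so the genotypes could not be told apart there, and within cluster 19 it was at 15.1 and 46.8 CPM. Of 240 Serping1 counts, 187 (77.9%) lay in cluster 15. The leading genes of cluster 15 were Gfap, Osmr, Plce1 and Gpam, with C4b itself among its first 10, and those of cluster 19 were Aqp4, Rfx4 and Padi2. Both oligodendrocyte clusters rose, from 73.6 to 923 CPM of C4b in cluster 3 and from 79.4 to 1284 in cluster 6.

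**Figure D4:**
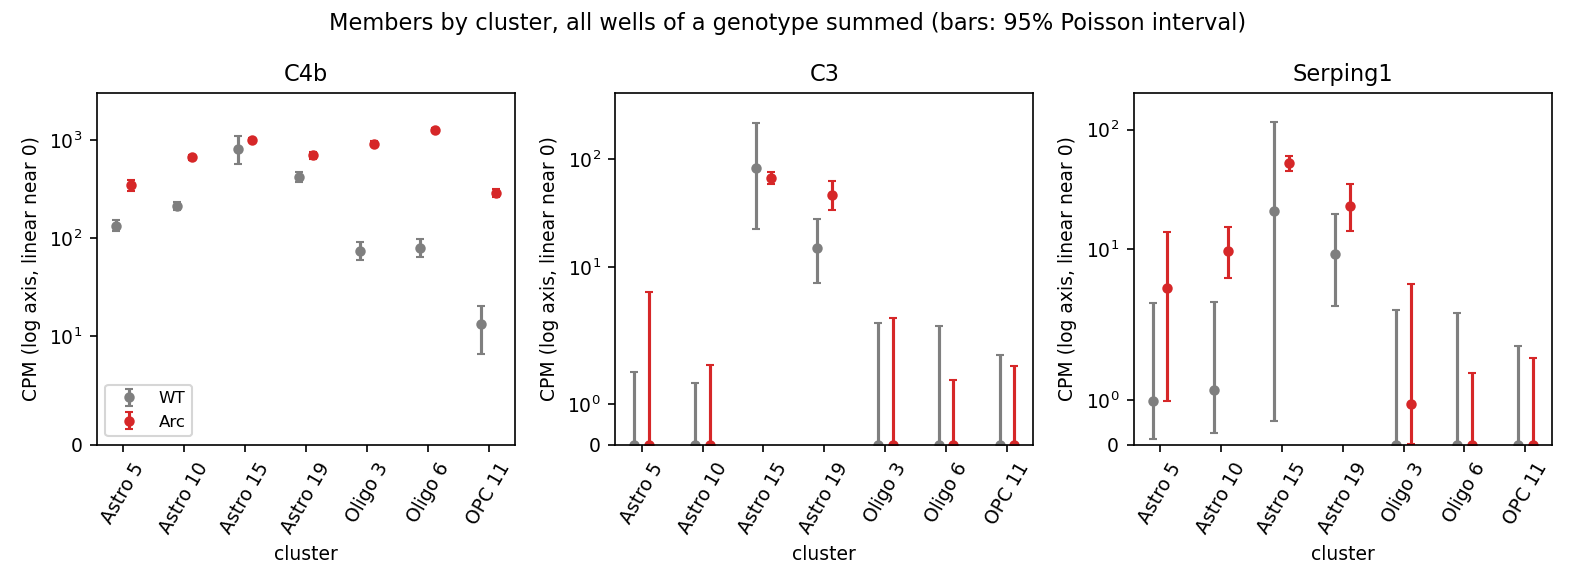
C4b, C3 and Serping1 in CPM (log axis, linear near 0) pooled over the wells of a genotype, for the 4 astrocyte clusters, the 2 oligodendrocyte clusters and the OPC cluster, with 95% Poisson intervals for counting error only. C4b is higher in Arc in each cluster, with overlapping intervals in cluster 15, while C3 has 0 counts in astrocyte clusters 5 and 10.

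Summed over all nuclei, the share of C4b transcripts in each type was counted. In WT, astrocytes held 71.1% of 1554 C4b counts, oligodendrocytes 12.0% and OPCs 1.42%. In Arc, astrocytes held 45.9% of 12416, oligodendrocytes 31.9% and OPCs 4.37%. Oligodendrocytes were 8.1% of WT and 11.0% of Arc nuclei and astrocytes 12.6 and 12.2%, and they held 1.54 and 2.12% (oligodendrocytes) and 3.26 and 4.36% (astrocytes) of all transcripts, so these shares follow the level per cell, the depth and the number of nuclei. Unnamed clusters held 9.52 and 14.5% of the counts. For C3, astrocytes held 83.5% of the 334 Arc counts. For Serping1 they held 60.3% of 378 Arc counts and 7.06% of the WT counts.

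C4b in astrocytes, oligodendrocytes, OPCs and neurons, C3 and Serping1 in astrocytes and C4a, C2 and Serping1 in neurons were tested for PMX205, and none passed. Between Arc-PMX and Arc-veh, the log2 difference of C4b was −0.30 in astrocytes (interval of 2 standard errors −0.78 to 0.18), −0.11 in oligodendrocytes (−0.50 to 0.28) and −0.13 in OPCs (−0.61 to 0.36), each with edgeR adjusted p of 1.0. These 3 values turned to 0.02, 0.13 and 0.06 without the well Arc-veh F2, which had the highest C4b in each type. For C3 and Serping1 in astrocytes the differences were 0.13 (−0.50 to 0.77) and 0.04 (−0.48 to 0.56). The comparison called 0.0137% of genes in astrocytes, 0.0214% in oligodendrocytes, 0.0322% in OPCs and 0% in neurons, so few genes of any kind passed. Between WT-PMX and WT-veh, C4b differed by 0.44 in astrocytes (−0.14 to 1.03), 0.22 in oligodendrocytes (−0.51 to 0.95) and 0.67 in OPCs (−0.94 to 2.28), and 0% of genes were called in each of the 4 types. The astrocyte medians were 166 CPM in WT-PMX, where M1 was highest at 468 CPM, and 169 CPM in WT-veh.

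The genotypes also differed under PMX205. Between Arc-PMX and WT-PMX the log2 fold change of C4b was 1.66 in astrocytes (edgeR adjusted p = 9.6e-06, 7.45% of genes higher), 3.73 in oligodendrocytes (adjusted p = 6.1e-14, 1.39%), 4.02 in OPCs (adjusted p = 6.6e-10, 0.87%) and 1.75 in neurons (adjusted p = 0.504, 0.0135%). The astrocyte value was 2.03 without WT-PMX M1, 2.61 in females alone and 1.0 in males alone, where it was not called (edgeR adjusted p = 0.0684). C3 rose by 3.76 and Serping1 by 3.67 in astrocytes (edgeR adjusted p = 9.1e-07 and 3.4e-08). Without WT-PMX M2 the WT-PMX wells hold 0 counts of C3, so the size of the C3 fold depends on that well. With each well left out in turn C3 stayed called, at 3.39 to 7.33 (edgeR, highest adjusted p = 1.4e-05). The PMX205 effect in Arc minus that in WT was −0.74 for astrocyte C4b (edgeR unadjusted p = 0.057, adjusted p = 1.0), and became −0.36 without WT-PMX M1 and −0.39 without Arc-veh F2. This comparison called 0% of genes in each of the 4 types.

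**Figure D5:**
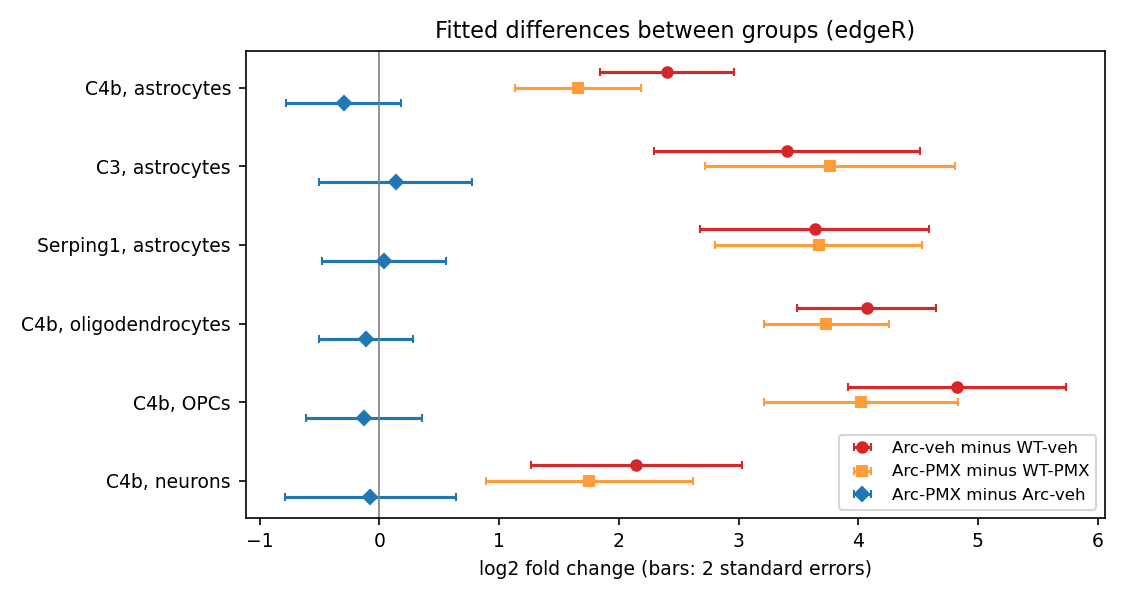
Log2 fold changes from edgeR of C4b in 4 cell types and of C3 and Serping1 in astrocytes, with bars of 2 standard errors, for Arc-veh against WT-veh, Arc-PMX against WT-PMX and Arc-PMX against Arc-veh. The genotype differences of C4b in oligodendrocytes (4.07 and 3.73) and OPCs (4.82 and 4.02) lie above those in astrocytes (2.40 and 1.66), and the bars of Arc-PMX against Arc-veh include 0.

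The sexes were compared for C4b in astrocytes, oligodendrocytes and OPCs and for C3 and Serping1 in astrocytes, and none passed. Astrocyte C3 lay between 25.5 and 75.9 CPM in the 6 female Arc wells (median 60.04), while the 6 male ones reached from 13.9 to 41.9 CPM (median 19.8). The ranges overlapped, and over all wells males minus females gave −1.17 (standard error 0.30, edgeR unadjusted p = 0.00041, adjusted p = 0.159). C4b in oligodendrocytes was 807 to 2434 CPM in female and 713.5 to 1213 CPM in male Arc wells (−0.62 over all wells, edgeR adjusted p = 0.315). Serping1 in astrocytes had the other sign, 0.36 (adjusted p = 0.675). Sex called 0.151% of genes in astrocytes, 0.15% in oligodendrocytes and 0.0966% in OPCs. The Arc minus WT change of astrocyte C4b was 1.05 log2 units smaller in males (edgeR unadjusted p = 0.0044, adjusted p = 0.775), and 0% of genes were called for this difference in each of the 3 types.

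Across the 12 Arc wells, C4b in 1 cell type went with C4b in the others. Pearson's r of log2 CPM was 0.94 between astrocytes and oligodendrocytes (Spearman's rho 0.85), 0.85 between astrocytes and OPCs (0.83) and 0.78 between oligodendrocytes and OPCs (0.67). Across the 12 WT wells r was 0.05, −0.12 and 0.52. The WT wells held only 0 to 5 counts of C4b in OPCs and 0 to 37 in oligodendrocytes. Their r are therefore taken near the floor and are not comparable with those of Arc. All these correlations are descriptions, since types of a well share the animal, the preparation and the depth. The genes whose log2 CPM across the 24 wells was most like C4b were Gfap, Aspg, Tbc1d2b, Igfbp5 and Gpam in astrocytes, with r of 0.92 to 0.93 among 5272 genes and 0.44 to 0.70 within groups. In oligodendrocytes they included Aldh1l2, Adamtsl3, App and Rtp4, with r of 0.90 to 0.92 among 4650 genes and 0.44 to 0.76 within groups. In OPCs they were Fam19a1, Ermard, Nrxn3, Adamts9 and Gm26673, with r of 0.88 to 0.94 among 3103 genes and 0.07 to 0.46 within groups. The human APP transgene is not in the mouse reference, so whether App counts hold its reads was not tested.

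Of a list of 63 complement genes, 10 could be tested in astrocytes, and 5 rose and 1 fell between WT-veh and Arc-veh, where 7.62% of all genes tested were called higher. Beside C3, C4b and Serping1, these were Clu, which encodes the inhibitor clusterin (log2 fold change 0.74, edgeR adjusted p = 0.016), and the complement regulator Csmd1 (1.14, adjusted p = 3.2e-06), while its relative Csmd3 fell by 0.67 on the log2 scale (adjusted p = 0.032). C3 and Serping1 in astrocytes, and C4b in OPCs and neurons, passed the filter on low counts through the Arc wells alone, so the counts of tested genes describe the list and support nothing about it. In oligodendrocytes 3 of 8 rose, beside 2.1% of all genes, which were C4b, Csmd2 (0.94, adjusted p = 0.00034) and Masp1, a protease of the lectin pathway (2.72, adjusted p = 0.00037), and Sez6l2 fell by 0.59 (adjusted p = 0.031). The median there was 0.03, against 0.01 over all genes in an oligodendrocyte. In OPCs C4b was the 1 gene of 7 that was called (median −0.10, 0.934% of all genes called higher), and in neurons it was the 1 of 28 (median 0.01, 0.0743%). In vascular cells 0 of 7 tested were called by edgeR, and 0 of all 1705 genes were, with 58 of them at an unadjusted p under 0.05, and DESeq2 also called 0.

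Genes of reactive astrocytes and of the response of oligodendrocytes near plaques were listed for background. In astrocytes all 8 tested of 10 reactive genes rose, against 7.62% of all genes tested, among them the protease inhibitor Serpina3n (log2 fold change 4.96), the cytokine receptor Osmr (3.38), Gfap (3.14) and the transcription factor Stat3 (1.32), with a median of 2.91. Of the oligodendrocyte-lineage list, 4 were tested in oligodendrocytes and 3 rose, against 2.1% of all genes, Stat3 (1.58), the tetraspanin Cd9 (0.82) and the cytokine Il33 (0.59). In OPCs both tested rose, against 0.934% of all genes, Stat3 (1.27) and Cd9 (1.12). In astrocytes 3 of 5 rose and Il33 fell by 0.96 on the log2 scale.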

How the data were processed

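Nuclei of the hippocampus were barcoded by split-pool ligation (Parse), and the 7 sublibraries, each of which mixes all 48 wells of the first round, were summed per well. The authors deposited raw transcript counts per barcode and gene, which split-pipe made on mm10. They are not normalized, and all 1516119 barcodes are present. The submitters' processing notes also list bcl2fastq. Each well's genotype, treatment and sex come from the deposited sample sheet. The 24 wells of single cells were not used here.

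Kept were nuclei with more than 300 and fewer than 50000 transcripts, more than 400 genes and under 1% mitochondrial transcripts (45138 nuclei), without doublets (Scrublet per sublibrary, expected rate 0.06, score above 0.25, 1253 nuclei). A further count found 8449 nuclei whose well combination occurred in more than 1 sublibrary. Nuclei were clustered with scanpy 1.11.5 and leidenalg 0.10.2 (2000 variable genes without the complement list, 30 components, 15 neighbours, resolution 1.5, seed 1) and clusters named from marker lists. Counts of wells with at least 10 nuclei of a type were compared by edgeR 4.0.16 in R 4.3.3 (quasi-likelihood test, TMM, filterByExpr, 4 groups in 1 fit, sex as covariate, Benjamini-Hochberg at 0.05 over all genes of a type and contrast). The test was tried on simulated counts. Members too low for edgeR, shares and differences between types were tested by exact permutation of wells (two-sided), and levels between types of a well by sign-flip. A limit for 0 counts is 3 counts over the transcripts of the type, and such limits and the 95% Poisson intervals cover counting error only. The study's own test takes nuclei as replicates and was not used.

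The members, marker and gene lists were chosen with earlier results of these data known. Named genes are the members, the genes of the complement and background lists that passed between Arc-veh and WT-veh, and the 5 genes most correlated with C4b in each glial type (mean log2 CPM of at least 5), of which 1 in oligodendrocytes is not reported here. Alternatives were relative log expression scaling, DESeq2 1.42.0, no filter, no covariate, 2 groups per fit, each well or sublibrary left out, doublets kept, more than 500 transcripts and genes, types named by marker score, nuclei with markers of other types left out (2 ways, 1 of them added after seeing the data), wells with at least 20 nuclei, a replicate block, and each sex alone.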

Additional observations from a re-analysis of the deposited data

Results flagged for a closer look

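Of 36 groups of 6 wells checked for a single well far from the others, 5 had one. The rule flags about 1 in 20 groups of normally distributed values. That rate does not carry over to sparse CPM or to groups that share wells, so the count carries no test. C4b in astrocytes of WT-PMX M1 was 468.3 CPM, with the next well at 245.3. C4b in oligodendrocytes of Arc-veh F2 was 2434 CPM, with the next at 1221, and in neurons of the same well 3.479 CPM, with the next at 1.644. C4b in neurons of Arc-PMX F2 was 2.654 CPM, with the next at 1.477. C3 in astrocytes of WT-PMX M2 was 6.48 CPM, with the other 5 wells at 0.

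The change of C4b from WT-veh to Arc-veh differed between cell types by exact permutation tests over wells of the difference itself. Astrocytes minus OPCs was −1.48 log2 units, astrocytes minus oligodendrocytes −2.23, OPCs minus neurons 2.12 and oligodendrocytes minus neurons 2.88 (exact permutation, adjusted p of 0.00433, 0.00649, 0.00433 and 0.00433). With a prior count of 0.5 the 4 differences were −2.58, −2.70, 2.85 and 2.97.

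Clusters left unnamed, which entered no comparison, also held C4b in Arc above its WT level, in sums over wells with no test. It went from 30.6 to 268.8 CPM in cluster 20 (best scores for microglia and oligodendrocyte markers), from 19.5 to 148.0 in cluster 27 (oligodendrocyte and neuron markers) and from 9.01 to 338.4 in cluster 37 (oligodendrocyte and OPC markers, with Bcas1 and Enpp6 among its leading genes). It went from 111.5 to 797.9 CPM in cluster 40, with 2 Arc nuclei, and from 0.352 to 2.23 CPM in cluster 14.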

How the results depend on the processing

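Across 41 results and 821 alternatives, 762 kept direction and side of the threshold. The differences between Arc-veh and WT-veh in C4b of astrocytes, oligodendrocytes and OPCs and in C3 and Serping1 of astrocytes stayed past the threshold in every fit that held the gene. Their log2 fold changes were 2.11 to 2.53, 3.78 to 4.31, 4.62 to 5.10, 3.19 to 3.70 and 3.19 to 4.39 with each well left out, and 2.19 to 2.66, 3.78 to 4.68, 4.74 to 5.51, 2.93 to 4.53 and 3.57 to 5.02 in the settings other than a well or sublibrary left out. These other settings gave 14, 14, 13, 13 and 12 fits that held the gene, in the same order. For C4b in neurons the call was lost with no covariate (2.14), in females alone (2.18), in males alone (2.12), with doublets kept (2.15) and with types named by marker score (1.98), in 20 of 24 fits with a well left out (1.75 to 2.5) and in 3 of the 5 fits with a sublibrary left out that kept C4b past the filter (1.87 to 2.38, 2 of 7 fits did not), and the cause was not tested. Between Arc-PMX and WT-PMX, astrocyte C4b was not called in males alone (1.0, adjusted p = 0.0684), and neuronal C4b was called with no filter on low counts (1.75, adjusted p = 0.00799, edgeR).

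The difference between Arc-PMX and Arc-veh, never called, changed its sign in some settings, and the cause was not tested. With a well left out it ranged from −0.41 to 0.02 for astrocyte C4b, −0.09 to 0.35 for C3, −0.08 to 0.24 for Serping1, −0.23 to 0.13 for oligodendrocyte C4b, −0.36 to 0.07 for OPC C4b and −0.30 to 0.30 for neuronal C4b, and with a sublibrary left out from −0.01 to 0.39 for C3, −0.08 to 0.11 for Serping1 and −0.16 to 0.13 for neuronal C4b. C3 was −0.50 in males alone and −0.05 without nuclei with 2 or more markers of other types. Serping1 was −0.02 with the replicate block, −0.03 with doublets kept and by marker score, and −0.09 without nuclei with a defining gene of another glial type. Neuronal C4b was 0.23 in males alone, 0.15 with doublets kept and 0.64 by marker score. C4b in vascular cells minus OPCs of WT-veh was −0.19 with a prior count of 0.5.

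The replicate numbers were not taken to pair the wells. Deviations of wells with the same number had mean correlations of 0.03 to 0.21 by type and a lowest of −0.43. For wells of the same sex with another number the means were −0.08 to 0.06, lower in all types but microglia. The widest gap was in pericytes (0.21 against −0.08), and a weak pairing was not tested. With the replicate block the values were 2.36, 3.44 and 3.70 for C4b, C3 and Serping1 in astrocytes, 4.03 and 4.78 for C4b in oligodendrocytes and OPCs, and 2.24 in neurons. Calls between Arc-veh and WT-veh numbered 918 in astrocytes (335 to 994 over settings), 124 in oligodendrocytes (12 to 491), 33 in OPCs (13 to 52) and 14 in neurons (0 to 186). Few nuclei limit vascular cells and microglia. Endothelial cells and pericytes with at least 20 nuclei per well, and OPCs without nuclei with 2 or more markers of other types (52 of 1331 left), were not run because too few wells remained.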

Other observations

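Fibroblasts, ependymal cells, endothelial cells and pericytes, with few nuclei each, also held C4b. Pooled over wells, with no test of the pooled values, it went from 35.0 CPM in WT to 168 CPM in Arc in fibroblasts, from 26.6 to 137.5 in ependymal cells, from 19.6 to 90.7 in endothelial cells and from 16.98 to 44.3 in pericytes (4 and 10 counts). By well, Arc-veh against WT-veh did not pass in endothelial cells or pericytes (exact permutation tests, adjusted p = 0.754 and 0.814). Of the Arc-veh wells compared, 2 of 5 in endothelial cells and 2 of 4 in pericytes were at 0. Of the 10 Arc counts in pericytes, 6 lay in Arc-veh M2, and without the well with the most counts the pericyte values were 8.87 and 20.4 CPM. C3 in ependymal cells was 48.2 CPM in WT and 72.7 CPM in Arc, with 27 of the 28 Arc counts in Arc-PMX F1, and without the well with the most counts it was 24.7 and 4.71 CPM. Leaving out these wells was chosen after seeing the data. Among Arc-veh astrocytes, C3 was found in 7.10% of 831 nuclei with C4b and in 0.53% of 375 without, and Serping1 in 9.15% and 3.73%, where nuclei with C4b were deeper (median 2846 against 1452 transcripts). Microglial C4b was called by edgeR only when nuclei were named by marker score (log2 fold change 3.78, adjusted p = 0.00023).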
